A study of Mus musculus with 6 samples.

Results

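Fibronectin, the thrombospondins, the tenascins and 3 further matricellular genes were followed in cultured PASMCs, smooth muscle cells that give the pulmonary artery wall its tone, from the mouse. The genes were taken by symbol, as adhesive and matricellular matrix proteins outside the CCN family: Fn1, Thbs1, Thbs2, Thbs3, Comp, Tnc, Tnxb, Postn, Tgfbi and Sparc. All 10 were found among the 21785 genes of the deposited table, and all 10 passed the filter on low values. The PASMCs were grown out of vessel fragments from lungs of C57BL/6 mice and kept for 48 h in medium without supplements. Then 3 control samples received no ligand, and 3 samples were given BMP9 at 1 ng/mL together with BMP10 at 5 ng/mL for 6 h, so the effect of each of these bone morphogenetic proteins alone cannot be read. The labels name no genetic change in the mice, and nothing in them ties the 3 samples of a group to separate animals or cultures; the p-values below reflect the spread of these samples, which may be technical.

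Fibronectin is a large dimeric glycoprotein that cells pull into fibrils through integrins, and other matrix proteins assemble on those fibrils. The remaining proteins are mostly matricellular: they are secreted into the matrix and act on adhesion, growth factor availability and fibril assembly more than as load-bearing fibres. In the artery wall several of them are made in quantity during development and after injury, and tenascin-C and periostin are known as matrix genes of remodelled vessels.

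Levels are normalized read counts as deposited, and a change is the difference of log2(value + 1), stimulated minus control, ± SE. Adjusted p-values are from limma with Benjamini-Hochberg adjustment over the 21743 genes tested, and a gene is said to have risen or fallen where that value is under 0.05. Column totals lay between 27295973 and 31903795, and the reads behind them were estimated at 23.3 M to 54.4 M per library, with stimulated replicate 3 the deepest. All 7 BMP response genes used to check the stimulation (Id1, Id2, Id3, Smad6, Smad7, Smad9 and Nog) rose, with a median log2 change of 2.48. All 12 smooth muscle markers were at 10 or more in every library, and so were all 12 fibroblast, all 12 endothelial and all 10 macrophage markers and 10 of 12 lung epithelial and mesothelial markers, so the cultures held transcripts of other cell types. The summed endothelial markers were at 46266 in control replicate 2 and 48505 in stimulated replicate 2, against 12306 to 20157 in the other 4 libraries, and each of the 12 was highest in replicate 2 of both groups. The lung epithelial and mesothelial sum stood apart in the same way, at 37515 and 38209 in replicate 2 against 3425 to 18752 elsewhere, with 9 of 12 markers highest in replicate 2 of both groups. The summed macrophage markers were at 99677 to 172606 in controls and 147683 to 223351 after stimulation. The smooth muscle sum was 56033 to 82389 in controls and 115920 to 219107 after stimulation. These sums cover 10 and 12 genes and are not per kilobase of exons, so they do not rank the cell types against each other. Of the 12 smooth muscle markers 6 rose, among them Acta2, smooth muscle actin, by 1.76 ± 0.30, and of the 12 fibroblast markers 2 fell, among them Pdgfra (-1.29 ± 0.18). Of the endothelial markers 1 rose (Flt1, a VEGF receptor gene, by 1.55 ± 0.27), and no macrophage, epithelial or mesothelial marker passed. These counts are from the fit without replicate numbers. With the replicate number as a block, 7 smooth muscle markers and 1 macrophage marker rose and none of either list fell. In that fit 3 fibroblast markers rose and 3 fell, 2 endothelial markers rose and 3 fell, and 1 epithelial or mesothelial marker rose and 3 fell. The part of these markers in the changes below was not tested. In bulk samples such as these, fewer cells of a type and less RNA per cell cannot be told apart.

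Thbs1, Thbs2 and Tgfbi rose after BMP9 and BMP10, and none of the 10 genes fell in the fit without replicate numbers. Thbs1 rose 3.28-fold, Tgfbi 2.24-fold and Thbs2 1.62-fold as ratios of group means. Fn1, Sparc, Tnc, Postn, Tnxb, Thbs3 and Comp did not pass the test. The 3 rises among 10 stand beside 13.4% of all genes called in either direction with 8.61% called higher and 4.75% called lower. The 10 genes had a median log2 change of 0.50, against -0.03 over all genes tested. The groups did not overlap for 3 of the 10, the same 3 genes, and for 33.2% of all genes tested, so that count is near the background. The members were chosen with results of these data known, which limits what either count says about them.

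**Figure D1:**
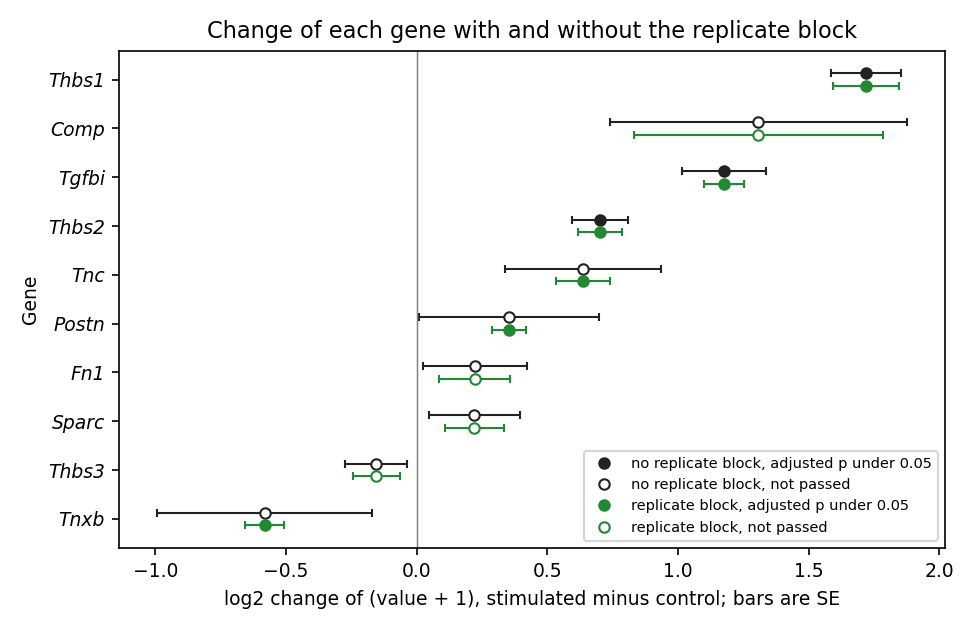
The log2 change of each of the 10 genes (x axis, stimulated minus control) with its SE, from 3 control and 3 stimulated libraries, in black without and in green with the replicate number as a block; filled points had an adjusted p under 0.05. Thbs1, Tgfbi and Thbs2 are filled in both fits, while Tnc, Postn and Tnxb are filled only with the block, where their SEs are 0.10, 0.07 and 0.07 instead of 0.30, 0.34 and 0.41.

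Promoter sequences could be set beside 2 of the 3 genes that rose, and Tnxb is shown with them because its values were lower after stimulation in every replicate pair. RefSeq's table (build GRCm38.p6) matched 7 of the 10 genes by symbol; Fn1, Thbs1 and Comp had no entry. Each line gives the 250 bases before an annotated start site, 5′ to 3′ on the strand of the gene, with matches to 6 searched motifs in capitals: CAGAC (part of the SMAD-binding element, read as GTCTG on the other strand), GGCGCC (a GC-rich sequence that BMP-activated SMADs bind), the CArG box of serum response factor, GGAATG (TEAD factors), TGANTCA (AP-1) and TATAAA (the TATA box, TTTATA on the other strand). Both strands were searched, in the window nearest to the GENCODE gene start where a gene had more than 1; the Sparc window lies 3103 bases from that start.
Thbs2, chr17:14694263-14694512, minus strand: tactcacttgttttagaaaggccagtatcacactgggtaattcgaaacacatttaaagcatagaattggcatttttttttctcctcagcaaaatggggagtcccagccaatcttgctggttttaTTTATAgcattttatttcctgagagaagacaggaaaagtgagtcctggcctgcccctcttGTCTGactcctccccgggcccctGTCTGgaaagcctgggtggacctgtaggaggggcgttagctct
Tgfbi, chr13:56609336-56609585, plus strand: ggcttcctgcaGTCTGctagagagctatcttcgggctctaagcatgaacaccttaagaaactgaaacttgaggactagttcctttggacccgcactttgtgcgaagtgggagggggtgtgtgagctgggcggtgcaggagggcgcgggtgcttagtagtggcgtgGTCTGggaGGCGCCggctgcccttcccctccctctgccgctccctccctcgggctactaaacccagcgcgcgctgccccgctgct
Tnxb, chr17:34670285-34670534, plus strand: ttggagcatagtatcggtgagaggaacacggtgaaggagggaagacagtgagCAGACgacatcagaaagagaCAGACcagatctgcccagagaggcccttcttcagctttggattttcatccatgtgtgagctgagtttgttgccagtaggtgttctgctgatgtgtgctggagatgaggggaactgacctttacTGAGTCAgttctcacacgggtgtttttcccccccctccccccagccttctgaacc

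The Thbs2 window held 2 CAGAC matches, at -66 to -62 and -43 to -39 from the start site, and the Tgfbi window held 2, at -239 to -235 and -85 to -81. CAGAC is common: 42.2% of all 32851 windows of this length held it, and the Tnxb window also held 2. GGCGCC was found in the Tgfbi window only among the 7 genes, at -77 to -72, and in 9.59% of all windows. The Tnxb window held 1 AP-1 match (6.75% of all windows). None of the 7 windows held a CArG box (1.47% of all windows) or a TEAD match (12.6%). These matches describe the letters in short windows and show no binding.

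Thbs1 encodes thrombospondin-1, a trimeric glycoprotein that can activate latent TGF-beta and binds CD36, CD47 and integrins. It lies on chromosome 2 from 118111876 to 118127133 (mm10). Its normalized read counts were 90213, 70868 and 92980 in control replicates 1, 2 and 3 and 249965, 298566 and 285205 in the stimulated ones. The lowest stimulated library was well above the highest control. The change was 1.72 ± 0.13 (84687 ± 12047 to 277912 ± 25108, SD, n = 3 per group; limma adjusted p = 0.000896), and it lay between 1.54 and 1.80 whichever library, or both numbered 2, was left out. Thbs1 took up 0.303% ± 0.0379 of all normalized counts in controls and 0.882% ± 0.0635 after stimulation. Per kilobase of exons it ranked 38th to 57th among 15852 protein-coding genes in the controls and 11th to 15th in the stimulated libraries.

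Thbs2, the nearest relative of Thbs1 and like it a trimeric thrombospondin with antiangiogenic activity, was at 7261, 8457 and 9051 in controls and at 13657, 12237 and 14293 after stimulation. The groups did not overlap, and the change was 0.70 ± 0.11 (limma adjusted p = 0.00827). Without stimulated replicate 3 it did not pass (0.65, limma adjusted p = 0.0514). Thbs1 moved further than Thbs2 in each of the 3 replicate pairs. The within-library ratio of Thbs1 to Thbs2 per kilobase, which no scaling of a library can change, was 9.66 to 14.3 in controls and 21.1 to 28.1 after stimulation.

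Thbs3 and Comp encode pentameric thrombospondins, and neither passed the test. Thbs3 was at 1005, 762 and 898 in controls and at 801, 768 and 810 after stimulation, and both ranges overlapped. Its change was -0.15 ± 0.12 (limma adjusted p = 0.451). Exons of Mtx1 on the opposite strand cover 6.59% of its exonic bases, and whether the counting used strand is not given in the sources used here. Comp, the cartilage oligomeric matrix protein gene and a marker of cartilage and of some myofibroblasts, was at 5, 8 and 20 in controls and at 36, 14 and 30 after stimulation. These are among the lowest values of the set, and the libraries overlapped between 14 and 20. Its change of 1.31 ± 0.57 did not pass (limma adjusted p = 0.185), and the scale understates changes of genes this low. No test compared the 4 thrombospondin genes with each other.

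Tgfbi, named for its induction by TGF-beta, encodes an integrin-binding protein with fasciclin domains. It lies on chromosome 13 from 56609523 to 56639562. Counts were 1280, 1889 and 1397 in controls and 3083, 3814 and 3326 after stimulation, with every stimulated library above every control. The change was 1.18 ± 0.16 (limma adjusted p = 0.00571), and the 3 replicate pairs gave 1.27, 1.01 and 1.25. Postn, periostin, shares the fasciclin domains and promotes collagen fibril assembly. It was at 7000, 14949 and 8013 in controls and at 8914, 17865 and 10999 after stimulation. Replicate 2 was the highest library of each group, and the groups overlapped. Its change was 0.35 ± 0.34 (limma adjusted p = 0.555).

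Fn1, fibronectin, took up 1.16% ± 0.279 of all normalized counts in controls and 1.18% ± 0.0853 after stimulation. Its values were 385334, 230046 and 360747 in controls and 376491, 344458 and 391090 after stimulation. Control replicate 2 stood below the other 5 libraries. The change was 0.22 ± 0.20 (limma adjusted p = 0.522), and without control replicate 2 it was -0.01 (limma adjusted p = 0.958). Because Thbs1 rose beside it, the within-library ratio of Thbs1 to Fn1 per kilobase went from 0.45 to 0.59 in controls to 1.28 to 1.67 after stimulation. Sparc, a collagen-binding glycoprotein also called osteonectin, was at 111820, 124351 and 111950 in controls and at 110171, 176519 and 126545 after stimulation. Stimulated replicate 2 was the highest and stimulated replicate 1 the lowest of the 6 libraries, and control replicate 2 was the highest control. The change was 0.22 ± 0.17 (limma adjusted p = 0.461), and without stimulated replicate 2 it was 0.03 (limma adjusted p = 0.903).

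The tenascins are large glycoproteins that tend to loosen cell adhesion: tenascin-C is associated with remodelling tissue, and tenascin-X with collagen of mature connective tissue. Tnc was at 28147, 44413 and 31806 in controls and at 36382, 80789 and 50865 after stimulation. Control replicate 2 overlapped with stimulated replicate 1, and the change was 0.64 ± 0.30 (limma adjusted p = 0.216). Tnxb was at 1600, 3990 and 2050 in controls and at 1180, 2619 and 1262 after stimulation. Replicate 2 was again the highest in both groups, and the change was -0.58 ± 0.41 (limma adjusted p = 0.408). The within-library ratio of Tnc to Tnxb per kilobase was 17.5 to 27.6 in controls and 48.4 to 63.3 after stimulation, with no overlap. This ratio was not tested, and neither gene passed in the fit without the replicate block.

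**Figure D2:**
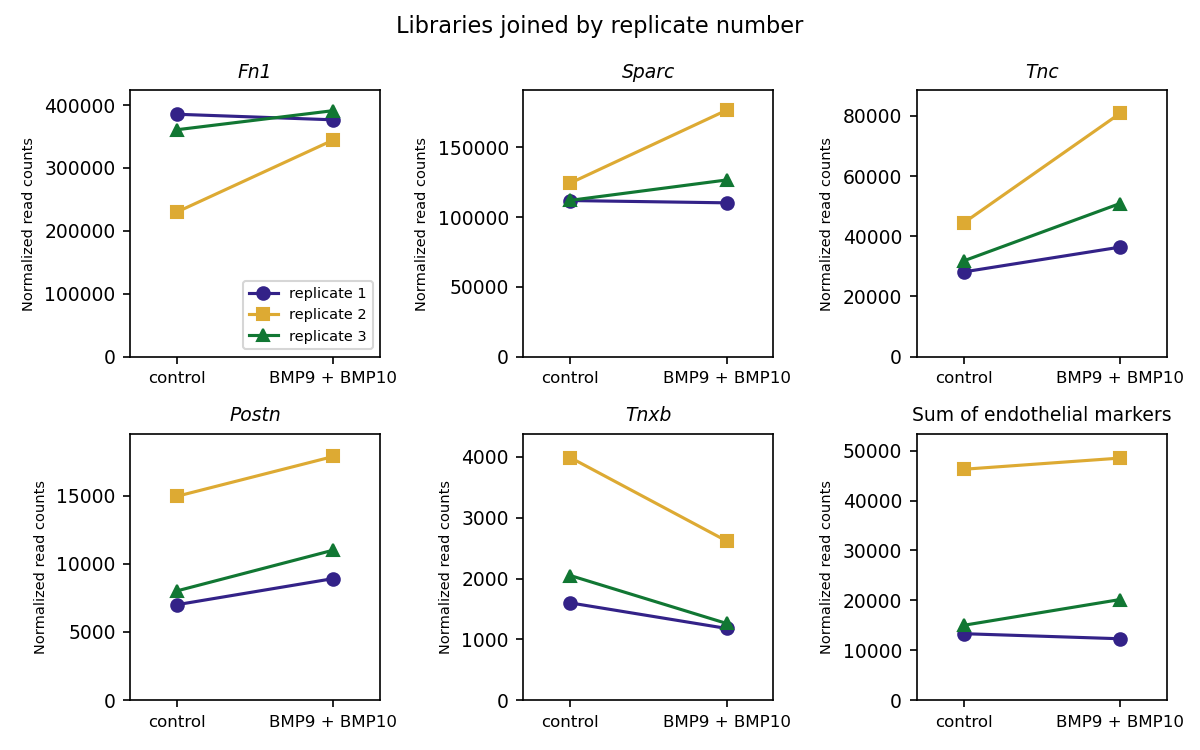
Normalized read counts (y axis from 0) of Fn1, Sparc, Tnc, Postn and Tnxb, and the sum of 12 endothelial markers, in control and stimulated libraries joined by replicate number. Tnc and Postn go up and Tnxb goes down along all 3 lines, while replicate 2 lies apart from replicates 1 and 3 in both groups for Tnc, Postn, Tnxb and the endothelial sum.

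Replicate 2 was the highest library of both groups for Tnc, Postn, Tnxb, Sparc and the called gene Tgfbi. For Fn1 and Thbs3 it was the lowest of both groups. For Tgfbi it was at 1.41 times the mean of the other controls and 1.19 times that of the other stimulated libraries. The same values were 1.11 and 1.49 for Sparc and 0.62 and 0.90 for Fn1. Control replicate 2 was at 1.48, 1.99 and 2.19 times the mean of the other controls for Tnc, Postn and Tnxb, and stimulated replicate 2 at 1.85, 1.79 and 2.14 times the mean of the other stimulated libraries. The pairs 1, 2 and 3 gave log2 changes of 0.37, 0.86 and 0.68 for Tnc, of 0.35, 0.26 and 0.46 for Postn and of -0.44, -0.61 and -0.70 for Tnxb. With the replicate number as a block, Tnc (limma adjusted p = 0.00552) and Postn (0.00963) rose and Tnxb (0.00243) fell, so 5 of the 10 genes rose and 1 fell, against 26.8% of all genes called in that fit, with 14.9% higher and 12.0% lower. Those 3 calls were lost when both libraries numbered 2 were left out of the blocked fit (limma adjusted p = 0.0762, 0.0517 and 0.0632), which leaves 2 pairs. Their log2 changes there were 0.52 for Tnc, 0.40 for Postn and -0.57 for Tnxb, against 0.64, 0.35 and -0.58 with all 3 pairs, while Thbs1, Thbs2 and Tgfbi passed there too. With equal library totals and the block, Postn did not pass (0.18, limma adjusted p = 0.0808) and Thbs3 fell (-0.33, limma adjusted p = 0.0238). The endothelial sum and the epithelial and mesothelial sum given above were also highest in replicate 2, and their part in these levels was not tested.

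**Figure D3:**
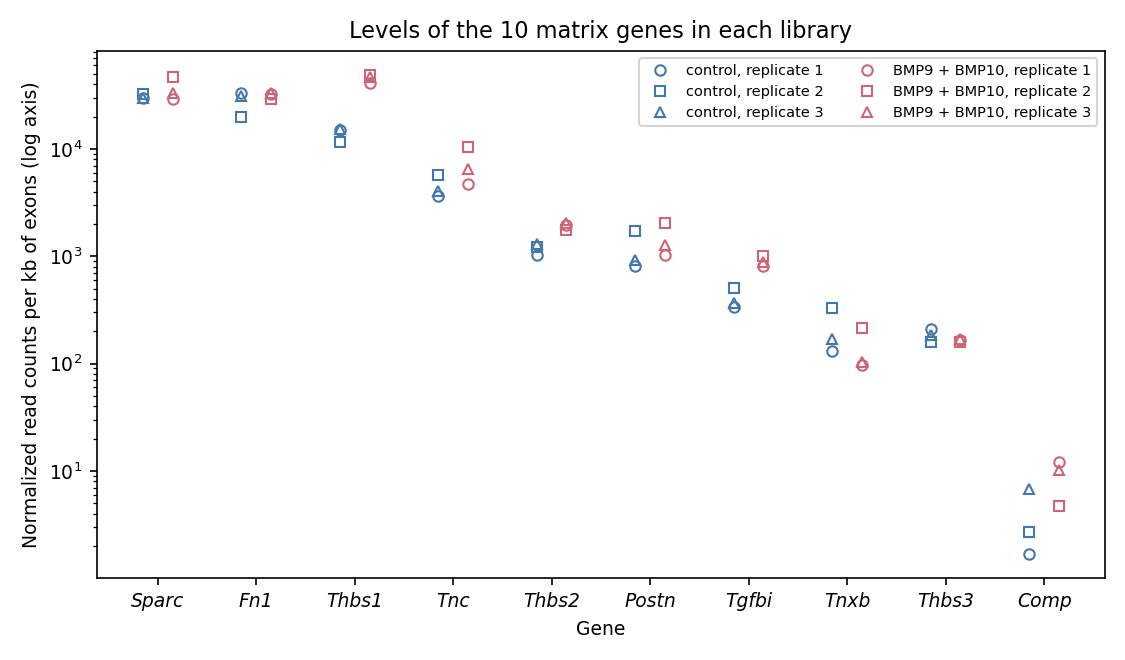
Normalized read counts per kilobase of exons (y axis, log scale) of the 10 genes, ordered by their control mean, with 1 point per library (blue control, red stimulated; circle, square and triangle for replicates 1, 2 and 3). Thbs1 moves from a control range of 11669 to 15310 to 41160 to 49163 after stimulation, above Fn1 and overlapping with Sparc, and Comp lies lowest, at 12.1 or less in every library.

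The 10 genes covered a wide range of levels. Per kilobase of exons, controls had the order Sparc (mean 30634), Fn1 (27846), Thbs1 (13945), Tnc (4476), Thbs2 (1179), Postn (1148), Tgfbi (404), Tnxb (209), Thbs3 (184) and Comp (3.71). The control libraries overlapped between neighbours for Sparc and Fn1, for Thbs2 and Postn, and for Tnxb and Thbs3, so those neighbours are not separated. After stimulation Thbs1 had the highest mean (45762, libraries from 41160 to 49163), overlapping with Sparc (36364, from 29084 to 46600) and lying above Fn1 (31723) in every library. Together the 10 genes made up 1.83% to 2.24% of all normalized counts in controls and 2.60% to 2.94% after stimulation. The largest part of that difference lay in Thbs1, whose mean share was 0.303% in controls and 0.882% after stimulation. The mean shares were 1.16% and 1.18% for Fn1, 0.416% and 0.437% for Sparc, and 0.125% and 0.177% for Tnc.

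The genes most alike to Thbs1 in pattern were sought among 11462 named protein-coding genes with a mean of at least 100, by the root mean square difference of their centred log2 profiles over the 6 libraries. The closest were Chsy1 (0.08), a chondroitin sulfate synthase gene, Ctps (0.08), a CTP synthase gene, Lrig3 (0.09), Cdr2 (0.10) and Creb3l2 (0.11), a transcription factor gene of the secretory pathway. Among the other 9 members Tgfbi came nearest (0.40), followed by Thbs2 (0.55). For Tnxb, the member with the lowest change, the closest were Igsf10 (0.11), Bmf (0.12), Bcam (0.13), Col4a4 (0.15) and Disp2 (0.16), each with replicate 2 highest in both groups and none past the test. The 6 libraries are shared by all these genes, and likeness over them is a description.

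Receptors of these proteins moved in both directions. Of 22 receptor genes, 5 rose, 3 fell and 14 did not pass, with a median log2 change of 0.06. Over all genes tested, 8.61% were called higher and 4.75% lower. Itga5, which encodes the alpha subunit of the main fibronectin receptor, was at 11735, 15663 and 12309 in controls and at 58908, 63746 and 56393 after stimulation. No control came near the stimulated libraries, and the change of 2.18 ± 0.12 (limma adjusted p = 0.000292) exceeded the estimate for each of the 10 matrix genes, a difference that was not tested. Its beta partner Itgb1 rose by 0.68 ± 0.10, Itgav, the alpha subunit of RGD-binding integrins, by 0.75 ± 0.12, and Itga9, the alpha subunit of a tenascin-binding integrin, by 1.01 ± 0.19. Named after their values were seen, Itgb3 rose by 0.62 ± 0.13 (not with equal library totals, 0.45 with a limma adjusted p of 0.0584), while Itga2b (-0.99 ± 0.19), Itgb8 (-1.25 ± 0.31) and the syndecan gene Sdc1 (-0.38 ± 0.09) fell. The endocytic receptor gene Lrp1 (0.01 ± 0.13) and Calr, calreticulin (0.05 ± 0.07), did not pass. The call of Itga5 was kept without each single library, but without stimulated replicate 3 it was the only one of the 8 left. Among alternatives without the block, Itgb3, Itgb8 and Sdc1 each lost their call under 6, and Itga2b and Itga9 under 3. Without control replicate 1 no receptor gene was called lower. With the replicate block 9 receptor genes rose and 5 fell, beside 14.9% of all genes called higher and 12.0% lower in that fit. With the block but without both libraries numbered 2, 5 receptor genes rose and 1 fell.

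Matrix partners and processing genes had 5 rises and no fall among 23, with a median log2 change of 0.18. The shares over all genes tested were 8.61% called higher and 4.75% called lower. Lox, which cross-links collagen and elastin, rose by 1.93 ± 0.10 (16630 ± 1141 to 63528 ± 5786), Col12a1, a fibril-associated collagen gene, by 1.34 ± 0.21, Tgfb1 by 0.93 ± 0.12 and the proprotein convertase gene Furin by 0.72 ± 0.14. The fifth, named after its value was seen, was Loxl2 (0.51 ± 0.11); its call was lost under 8 alternatives, among them equal library totals (0.34, limma adjusted p = 0.0664) and limma-voom (0.0667). The fibrillar collagen genes Col1a1 (0.10 ± 0.31) and Col1a2 (-0.15 ± 0.17) did not pass. Lox and Tgfb1 passed whichever library was left out; without stimulated replicate 3 they were the 2 calls left. With the block 7 rose and 2 fell, beside 14.9% of all genes called higher and 12.0% lower in that fit. With the block and equal totals 5 rose and 5 fell, and with the block but without both libraries numbered 2, 4 rose and 2 fell.

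Other adhesive and matricellular genes had 3 rises and no fall among 37, with a median log2 change of 0.02, a count near the 8.61% of all genes called higher. Fstl1, a secreted relative of SPARC and follistatin, was at 21771, 28081 and 24591 in controls and at 48109, 63087 and 57644 after stimulation, without overlap, and rose by 1.18 ± 0.14 (limma adjusted p = 0.00317). Vcan, the proteoglycan versican, rose by 0.58 ± 0.13 and Smoc2, also a SPARC relative, by 0.79 ± 0.21. Both of these calls were lost with equal library totals (limma adjusted p = 0.0933 and 0.0849) and without several single libraries, among them stimulated replicate 3 (0.131 and 0.176). Bgn, biglycan (0.24 ± 0.16), and Spp1, osteopontin (0.23 ± 0.21), did not pass. With the block 6 rose and 3 fell, again near the share of all genes (14.9% higher, 12.0% lower); with the block and equal totals the balance turned, with 3 rises and 7 falls.

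**Figure D4:**
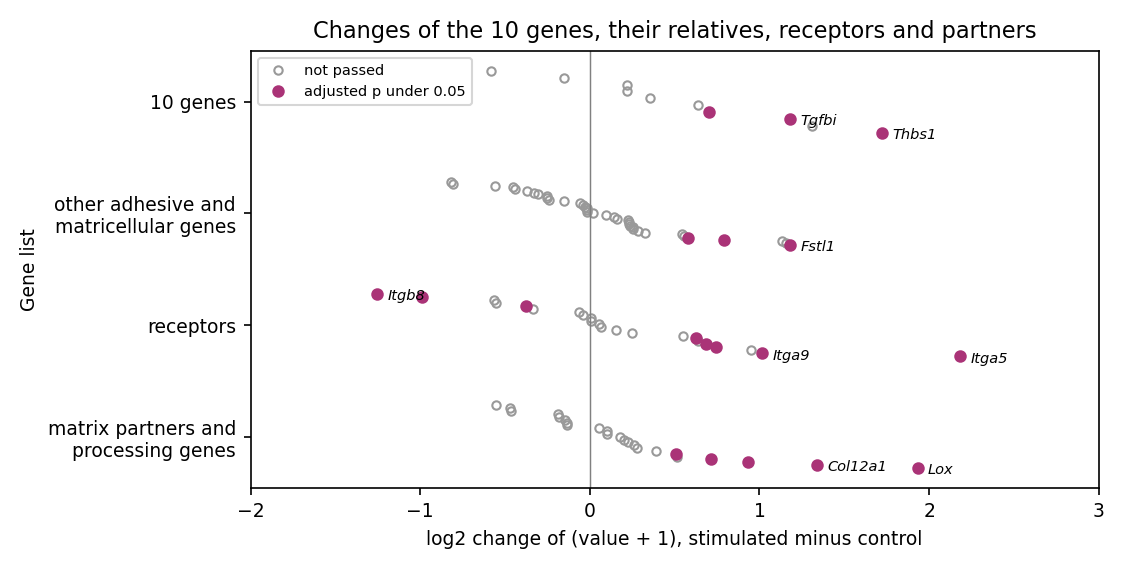
The log2 change (x axis, stimulated minus control) of every gene of the 4 lists, sorted within each list, with filled points for an adjusted p under 0.05 by limma. Itga5 lies furthest right at 2.18, followed by Lox (1.93) and Thbs1 (1.72), while most relatives lie around 0 (median 0.02).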

How the data were processed

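Stranded libraries of total RNA were sequenced from 3 control and 3 stimulated samples, per the labels' protocols. The submitters' processing notes name STAR 2.6.1d, Trimmomatic 0.38, DESeq2 1.18.1 and featureCounts 1.6.3, and hg38, GRCh38 and mm10; the annotation and the strand setting of the counting are not stated. The values as deposited are a score per gene and library: they show read counts multiplied by 1 factor per library (estimated at 0.584 to 1.32) and rounded to whole numbers. Count models were therefore not used. No 2 libraries were identical.

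Genes with a mean of at least 1 (21743; 42 left out) were analysed on the log2(value + 1) scale by limma 3.58.1 (R 4.3.3), whose prior followed mean intensity, with a single term for treatment and a Benjamini-Hochberg threshold of 0.05. Such fold changes understate low genes. Of the gene IDs, 21747 matched GENCODE M21 (mm10), which gave symbols, positions and exonic lengths. The fit was tested on simulated data. It recovered 76 of 100 genes changed by a log2 of 1 and 100 of 100 changed by 2, with 27 false calls. Those false calls were a larger share of all calls than the threshold of 0.05 aims at. The simulated libraries were scaled by the real column totals, higher in every stimulated library, so unchanged genes also differed between groups. The simulation therefore does not give the rate of false calls in the real data. The simulated libraries had no replicate effect, and smaller changes were not simulated.

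The labels give both groups the numbers 1 to 3. Among the 13185 genes averaging 50 or more, libraries with the same number deviated from their group means together (correlations of 0.75, 0.74 and 0.22 for numbers 1, 2 and 3). As all exceeded 0.1, samples sharing a number were regarded as pairs, although the labels do not say what they stand for. The reported changes come from the fit without pairing. The fit with the number as a block is given beside them for member calls and for counts of lists that it moves. Control replicate 3 correlated more with stimulated replicate 1 (0.29), so a cut of 0.1 does not single out pair 3. Within a group the 3 deviations of a gene add up to 0, so the correlations depend on each other. The calls with the block rest on this pairing.

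All 10 members are named. Of each other list, up to 4 called genes with the smallest p and the 2 with the highest mean among the rest are named. Members and lists were chosen with earlier results of these data known. The alternatives were other scalings, pseudocounts, filters, limma-voom, the block and leaving out libraries; the block with equal totals and the block without the libraries numbered 2 were added after seeing the data.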

Additional observations from a re-analysis of the deposited data

How the results depend on the processing

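Thbs1 and Tgfbi kept their call and direction under each of the 19 alternatives, and Thbs2 under all but one. Over the 10 genes, 181 of 189 values kept their direction and side of the threshold. That count says little on its own, as some alternatives hardly differ from the main fit. The median-ratio factors were 0.998 to 1.002 and the trimmed-mean factors 0.991 to 1.007. In addition, 7 of the 10 genes were not called to begin with. With single libraries left out Fn1 lay between -0.010, without control replicate 2, and 0.36. The members called were 3, and 2 to 3 when single libraries were left out, 6 with the replicate block and 6 with the block and equal library totals. All genes called were 2905 (1873 higher, 1032 lower). With single libraries left out they were 917 to 2384, lowest without stimulated replicate 3, and 1164 and 1163 without control replicates 1 and 3. With the replicate block they were 5837, with the block and equal totals 6958 (2042 higher, 4916 lower), and with the block but without both libraries numbered 2, 1796. Equal totals gave 1135 higher and 2265 lower, upper-quartile factors 1420 and 1352, and limma-voom 1128 and 2252. These settings moved the median of all genes to -0.20, -0.11 and -0.21, so values near 0, such as those of Fn1 (0.05) and Sparc (0.05) with equal totals, depend on the scaling. The cause was not tested.

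Receptor genes called were 8, and 1 to 7 with single libraries left out (3 without control replicate 1, 4 without control replicate 3), 7 with equal totals, 14 with the block, 13 with the block and equal totals and 6 with the block but without both libraries numbered 2. Partner genes called were 5, and 2 to 5 with single libraries left out (3 without control replicate 1 or 3), 4 with equal totals, 9 with the block, 10 with the block and equal totals and 6 with the block but without both libraries numbered 2. Other matricellular genes called were 3, and 1 to 3 with single libraries left out (1 each without stimulated replicate 3 and without control replicates 1 and 3), 1 with equal totals, 1 with limma-voom, 9 with the block, 10 with the block and equal totals (3 higher, 7 lower) and 6 with the block but without both libraries numbered 2. Fits with fewer libraries have fewer residual degrees of freedom. Depth limits Comp most, at 36 normalized counts or fewer in every library.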

Other observations

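Several matrix genes outside the 10 differed more between replicate numbers than between groups. Thbs4, a further thrombospondin gene, was at 3, 293 and 58 in controls and at 20, 579 and 59 after stimulation (1.13 ± 1.74, limma adjusted p = 0.721), with replicate 2 highest in both groups. Sparcl1, the closest relative of Sparc, was at 29305, 86741 and 40867 in controls and at 34378, 68244 and 32101 after stimulation, again highest in replicate 2. Nid1, nidogen-1 of basement membranes, went the other way, at 68927, 30274 and 58612 in controls and at 47605, 30490 and 51243 after stimulation, with replicate 2 lowest in both groups. These genes were chosen after their values were seen, and none passed the test between groups.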
